A study of Oryza sativa Japonica Group with 17 samples.

Results

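Expansins and xyloglucan endotransglucosylases/hydrolases (XTH) are wall proteins known above all for their part in the enlargement of plant cells, and 30 rice genes of these families were measured in roots that lack a cytosolic glutamine synthetase. The members are all genes whose symbol or synonym is EXPA, EXPB, EXLA, EXLB or XTH followed by a number, with an optional Os in front. The gene table listed 50 such genes, of which 30 had a probe set assigned to a single gene, among 17905 genes with such a probe set. They were 14 of 29 alpha-expansins (EXPA), 11 of 15 beta-expansins (EXPB), 4 of 4 expansin-like A genes (EXLA), 0 of 1 expansin-like B gene and 1 XTH gene, XTH8. The other 20 genes were not analysed here, among them EXPA17, an expansin of root hairs. Any XTH gene listed under another name was not read either. The rule reads gene names and not differences between groups, and a gene with several probe sets was read from the one with the highest mean signal over all samples.

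Each sample was a root sample of the cultivar Nipponbare, hybridised to 1 Affymetrix rice array. Plants of all groups were raised hydroponically to 18 days with 1 mM ammonium as the nitrogen source. The OsGS1;1 gene was disrupted in the insertion lines NC2373 and ND8037. Their homozygotes, NC2373 gs1;1 (n = 2) and ND8037 gs1;1 (n = 3), were set against NC2373 null (n = 3) and ND8037 null (n = 3). The null plants carry no insertion and descend from heterozygous plants of their line. The gs1;2 group (n = 3), homozygous for a disrupted OsGS1;2, was set against wild type (n = 3). No segregated null of gs1;2 is listed, so any other difference between those plants and wild type cannot be told apart from the loss of OsGS1;2. OsGS1;2 is represented by this single mutant.

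As background, expansins loosen the contacts between cellulose and the matrix polymers without cutting them, and they act best in the acid wall of a growing cell. Grasses have an enlarged set of beta-expansins, a family that includes pollen allergens, while expansin-like proteins have no established wall-loosening activity. XTH proteins cut and rejoin xyloglucan, a polymer that is scarce in the primary walls of grasses, where mixed-linkage glucan and arabinoxylan prevail. In a root these families are best known from the elongation zone and from root hairs.

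Values are deposited RMA signals on the log2 scale, and a difference is mutant minus control with the standard error (SE) and the adjusted p of limma over 57258 probe sets. A gene was called at an adjusted p under 0.05. Signals of different genes are not compared, since probe sets differ in how they bind. The disrupted genes were low where the labels place the insertions. The OsGS1;1 probe set read 8.85 and 8.65 in NC2373 homozygotes, against 11.80 to 12.50 in NC2373 null, and 8.01 to 8.16 in ND8037 homozygotes, against 9.96 to 10.77 in ND8037 null. The OsGS1;2 probe set read 6.86 to 7.21 in gs1;2, against 12.31 to 12.63 in wild type. The 6 ND8037 arrays had medians of 4.68 to 4.71 and the other 11 had medians of 5.37 to 5.41, so levels are compared here only within a set. In bulk roots, fewer cells of a type and less RNA per cell cannot be told apart.

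In NC2373 homozygotes, members of 3 families were lower and none was called higher. EXPB18, EXPA16 and XTH8 fell, which is 3 of 30 members called lower and 0 called higher. Over all probe sets of this comparison 3.58% were called lower and 4.07% higher. The median difference of the 30 members was -0.37, against -0.02 over all probe sets, and 22 members were negative. By family the median was -0.47 for EXPA, with 12 of 14 negative, and -0.23 for EXPB, with 8 of 11 negative. The 4 EXLA genes had a median of 0.10, with 3 of 4 positive. For 14 members both mutant samples lay below all 3 null samples, and for 2 members above them. Over all probe sets the same held for 20% and 15.9%. At an unadjusted p under 0.05, 11 members were lower and 2 higher, against 11.1% and 9.99% of all probe sets.

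EXPB18 (LOC4338206), a beta-expansin, had the largest difference of any member in this line. Its signal was 4.29 and 4.28 in NC2373 homozygotes, against 7.21, 6.33 and 6.63 in NC2373 null. Both mutant samples lay well below every null sample, and below the median of their own arrays. The difference was -2.44 (SE 0.522, adjusted p = 0.0115 in limma), a signal 5.44-fold lower. Wild type, on arrays of the same signal distribution, read 5.63, 6.87 and 6.79, so the mutant samples were below all wild-type samples as well. The call rested on both mutant samples: leaving out replicate 117 or 118 gave an adjusted p of 0.0737 and 0.0738 in limma, with the lone sample assumed to vary like the other groups, while the difference was -2.45 and -2.44.

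EXPA16 (LOC4341549), an alpha-expansin, fell less and with a narrower spread. It read 7.45 and 7.53 in NC2373 homozygotes, against 8.06, 8.38 and 8.17 in NC2373 null. The groups did not overlap, and wild type, at 8.55, 8.26 and 8.07, overlapped the null and not the mutant. The difference was -0.71 (SE 0.160, adjusted p = 0.0148 in limma), or 1.64-fold lower. Without replicate 117 or 118 the adjusted p was 0.101 and 0.0713 in limma. EXPA16 was also below its control in the other mutants, by differences of -0.22 in ND8037 (adjusted p = 0.391 in limma) and -0.32 in gs1;2 (adjusted p = 0.24 in limma), neither of which was called. In gs1;2 its samples, at 8.03, 8.00 and 7.90, nonetheless lay below all 3 wild-type samples.

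XTH8 (LOC4345019), a gibberellin-responsive XTH of rice and the only gene listed under an XTH symbol, had the smallest called difference. It read 11.74 and 11.90 in NC2373 homozygotes, against 12.27, 12.19 and 12.22 in NC2373 null. The null samples were tightly grouped and above both mutant samples, but wild type read 12.02, 11.84 and 11.86 and overlapped the mutant. The difference was -0.41 (SE 0.104, adjusted p = 0.0268 in limma), or 1.33-fold lower. The call was lost without null replicate 152 (adjusted p = 0.0876 in limma), null replicate 154 (0.0525), mutant replicate 117 (0.201) or mutant replicate 118 (0.0622). It was also lost when only the 2 compared groups entered the fit (adjusted p = 0.0823 in limma) and when each array set was fitted apart (0.0566).

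**Figure D1:**
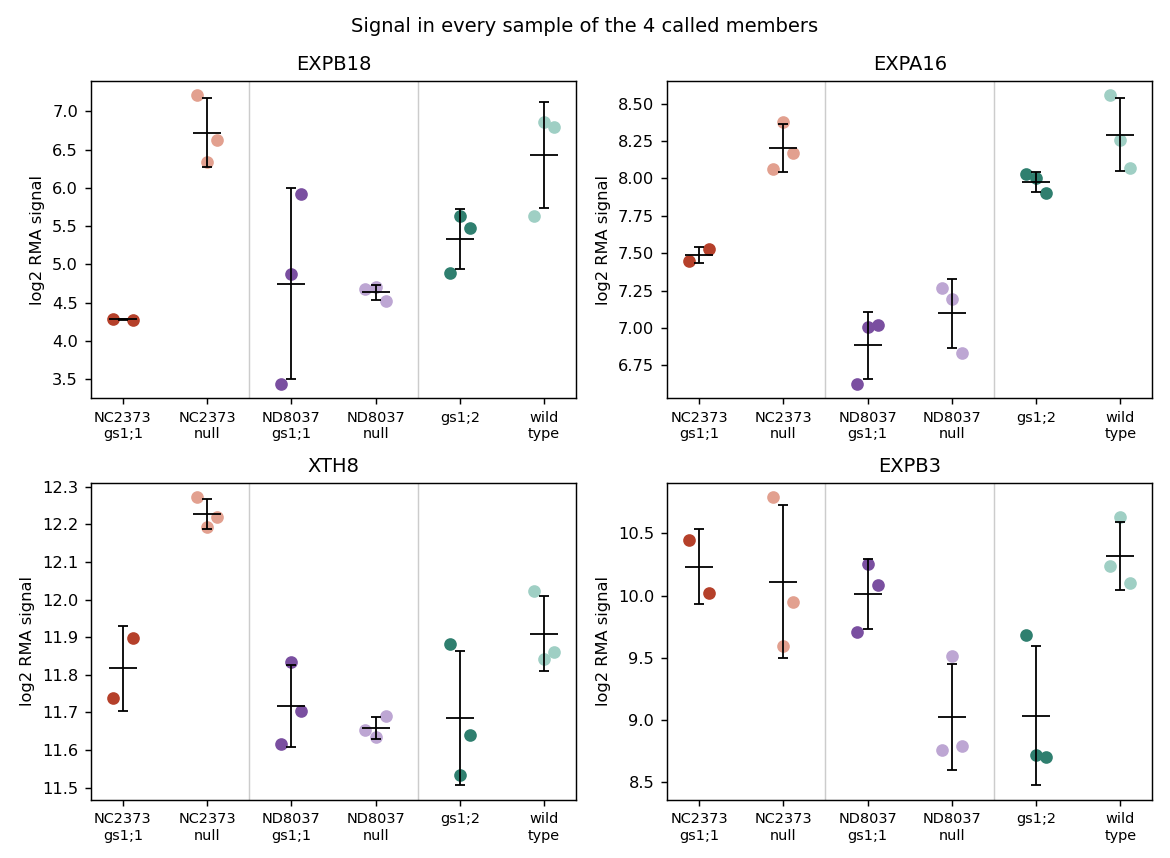
Log2 RMA signal (vertical axes, each with its own range) of the 4 called members in every sample, grouped along the horizontal axis as mutant and then control for each pair; points are samples, long bars group means and whiskers 1 SD. EXPB18 at 4.29 and 4.28 in NC2373 gs1;1 lies below every NC2373 null and wild-type sample, and EXPB3 in gs1;2 lies below every wild-type sample.

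Several alpha-expansins and EXPB11 had wide differences in NC2373 that were not called. EXPB11, a beta-expansin described in gibberellin-treated internodes of deepwater rice, read 8.76 and 8.69 in NC2373 homozygotes, against 11.59, 8.98 and 10.07 in NC2373 null. The mutant samples were below all null samples, which spread over more than 2 log2 units. The difference was -1.49 (SE 0.564, adjusted p = 0.131 in limma). EXPA31 read 4.27 and 4.46 in NC2373 homozygotes, against 5.93, 4.86 and 6.38 in NC2373 null, a difference of -1.36 (SE 0.454, adjusted p = 0.0846 in limma). EXPA31 was called without null replicate 153 (difference -1.79, adjusted p = 0.0278 in limma) and without gs1;2 replicate 354 (-1.36, 0.028). EXPA1 differed by -1.27 (adjusted p = 0.209 in limma) and EXPA3 by -0.97 (adjusted p = 0.157 in limma). In both the mutant samples lay below all null samples. EXPA2, among the brightest alpha-expansin probe sets, differed by -0.56 in NC2373 (adjusted p = 0.542 in limma), 0.45 in ND8037 (adjusted p = 0.531 in limma) and 0.11 in gs1;2 (adjusted p = 0.917 in limma).

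Some of these genes also differed widely between NC2373 null and wild type, though none was called. EXPB11 was 1.78 higher in NC2373 null than in wild type (SE 0.504, adjusted p = 0.116 in limma), and its mutant samples lay within the wild-type range of 7.71 to 8.91. EXPA1 was 1.35 higher in the null (adjusted p = 0.253 in limma), and EXPA3 was 0.90 higher. For XTH8 the null was 0.32 higher (adjusted p = 0.129 in limma) and for EXPB18 0.29 (adjusted p = 0.877 in limma). For EXPA16 the null minus wild-type difference was -0.09. Of the other members, EXPB7 was 1.17 higher in the null (adjusted p = 0.0823 in limma) and EXLA1 0.44 higher (adjusted p = 0.0518 in limma). Samples of null and wild type did not overlap for 4 members in the higher direction, these among them, and 1 in the lower. Over all probe sets this was so for 7.17% and 8.26%. No member was called between NC2373 null and wild type by limma, where 0.913% of all probe sets were called, while 8 members had an unadjusted p under 0.05 in the higher direction and 3 in the lower, against 5.9% and 6.86% of all probe sets. Both comparisons use the same 3 null arrays, so their values are given side by side only.

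In the same line 3 of the 4 expansin-like genes had positive differences, none of them called. EXLA1 read 11.74 and 11.93 in NC2373 homozygotes, against 11.47, 11.64 and 11.37 in NC2373 null. Both mutant samples were above all null samples, which was so for only 1 other member, EXPA6. The EXLA1 difference was 0.34 (SE 0.110, adjusted p = 0.0786 in limma). It was called without wild-type replicate 628 (adjusted p = 0.0413 in limma) and when dim probe sets were left out (0.048). For EXLA1 all NC2373 null samples also lay above the wild-type samples, at 11.14, 10.85 and 11.19. EXLA2 differed by 0.08 and EXLA4 by 0.12, while EXLA3 differed by -0.41 (adjusted p = 0.224 in limma).

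In homozygotes of ND8037, the second line with the same gene disrupted, no member was called by limma, and most differences were positive. At an unadjusted p under 0.05, 3 members were higher and 1 was lower, against 10.6% and 13.7% of all probe sets. By adjusted p, 4.4% of all probe sets were called higher and 4.68% lower. The median difference of the members was 0.11, against -0.04 over all probe sets, with 23 positive and 7 negative. All 11 beta-expansins and all 4 EXLA genes were positive in their chosen probe sets, with medians of 0.27 and 0.21. The smallest of these differences were 0.0468 and 0.0044, and the probe set not chosen for EXPB17 was negative (-0.10). The 14 alpha-expansins were split, 7 positive and 7 negative, with a median of -0.06. The samples of the groups did not overlap for 8 members in the higher direction and 2 in the lower, against 11.9% and 16.5% of all probe sets.

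EXPB3 (LOC4349349), a beta-expansin also known from growing deepwater-rice internodes, had the largest difference in ND8037. It read 9.71, 10.25 and 10.09 in ND8037 homozygotes, against 8.76, 9.51 and 8.79 in ND8037 null. Every mutant sample was above every null sample. The difference was 0.99 (SE 0.315, adjusted p = 0.0622 in limma). It was called when only the compared groups or only the ND8037 arrays were fitted (adjusted p = 0.042 in limma for each), with array weights (0.0327), without dim probe sets (0.0458), and without NC2373 null replicate 152 (0.0339) or gs1;2 replicate 354 (0.0419). EXPB2, a beta-expansin linked to the growth of the rice root system, read 10.07, 10.12 and 10.16 in ND8037 homozygotes, against 9.51, 9.66 and 9.46 in ND8037 null. These groups were tight and apart. The EXPB2 difference of 0.57 had an SE of 0.355 and an adjusted p of 0.356 in limma with the spread taken from all groups, and an adjusted p of 0.016 with the compared groups alone. The third by size was EXPA31, which read 4.25, 4.37 and 4.67 in ND8037 homozygotes, against 4.56, 5.17 and 5.01 in ND8037 null. The groups overlapped, and the difference was -0.48 (SE 0.406, adjusted p = 0.515 in limma). In gs1;2 EXPA31 differed by -0.65 (SE 0.406, adjusted p = 0.418 in limma), so its sign was negative in all 3 mutants without a call.

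EXPB18, the member with the largest fall in NC2373, had no such difference in ND8037. It read 3.44, 4.87 and 5.92 in ND8037 homozygotes, against 4.68, 4.70 and 4.52 in ND8037 null. The mutant samples spread on both sides of the null, with an SD of 1.25, and the difference was 0.11 (SE 0.467, adjusted p = 0.918 in limma). ND8037 null had a mean percentile of 49.0 among the probe sets of its arrays, against 64.9 for NC2373 null. Whether a lower level in ND8037 null left less room for a fall was not tested. XTH8 differed by 0.06 (SE 0.0932, adjusted p = 0.748 in limma), with mutant samples at 11.62, 11.83 and 11.70 and null samples at 11.65, 11.63 and 11.69.

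**Figure D2:**
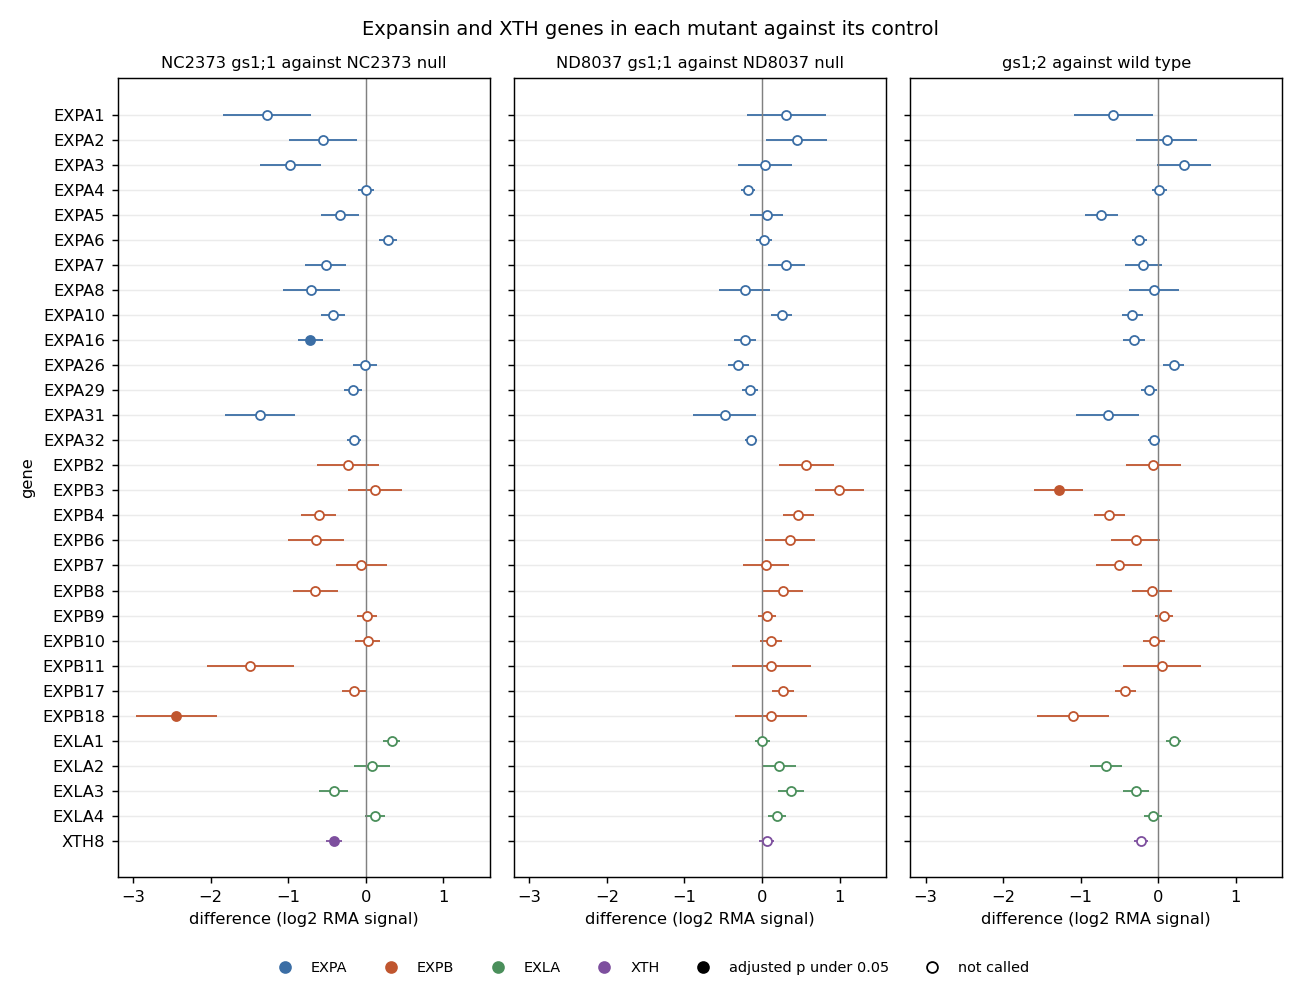
Difference in log2 RMA signal (horizontal axis) of each of the 30 members (rows) for NC2373 gs1;1 against its null, ND8037 gs1;1 against its null and gs1;2 against wild type; points are differences, lines 1 SE, and filled points have an adjusted p under 0.05. All 11 EXPB points are positive in ND8037, while 8 of 11 in NC2373 and 9 of 11 in gs1;2 are negative.

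The lines were next set against each other in the same fit. The NC2373 difference minus the ND8037 difference had a median of -0.49 over the members and was negative for 26 of 30, including all 11 beta-expansins, whose median was -0.87. No member was called by limma in this test, where 0.00873% of all probe sets were, and an unadjusted p under 0.05 was found for 8 members in the lower direction and 1 in the higher, against 8.46% and 7.49% of all probe sets. The widest was EXPB18 at -2.55 (SE 0.701, adjusted p = 0.139 in limma). EXPB11 followed at -1.61 (adjusted p = 0.315 in limma) and EXPA1 at -1.59 (adjusted p = 0.324 in limma). Each line has its own array set, so the effect of the line cannot be told apart from that of the set. The signs matched between the lines for 13 members, and only EXPA29 had mutant samples apart from the null in the same direction in both. EXPA29 read 4.65 and 4.77 in NC2373 homozygotes, against 5.00, 4.78 and 4.84 in NC2373 null, and 3.65, 3.52 and 3.54 in ND8037 homozygotes, against 3.68, 3.71 and 3.78 in ND8037 null. Its differences were small, -0.17 and -0.16, and were not called. The share of all probe sets with samples apart in both lines, in the same or in opposite directions, is not given here. The number of such members therefore cannot be judged.

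EXPB4, EXPB8 and EXPA10 had samples apart in opposite directions in the lines. EXPB4 read 10.78 and 10.71 in NC2373 homozygotes, against 11.64, 11.15 and 11.27 in NC2373 null, and 10.13, 10.49 and 10.59 in ND8037 homozygotes, against 9.99, 9.73 and 10.09 in ND8037 null. Mutant samples were thus all lower in NC2373 (-0.61) and all higher in ND8037 (0.46), and the test of that difference gave -1.07 with an adjusted p of 0.142 in limma. EXPB8 had differences of -0.65 and 0.27, and EXPA10, an aluminium-inducible expansin of the root, of -0.42 and 0.25. The tests of the line difference gave adjusted p values of 0.263 and 0.155 in limma.

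In gs1;2, 1 of 30 members was called lower, EXPB3, and none higher, against 2.37% and 1.67% of all probe sets. The median difference of the members was -0.21, against 0.02 over all probe sets, and 23 of 30 were negative. At an unadjusted p under 0.05, 10 members were lower and none was higher, against 10.1% and 9.23% of all probe sets. Medians were negative in each family, -0.16 for EXPA, -0.29 for EXPB, -0.18 for EXLA and -0.22 for the single XTH gene. The samples did not overlap for 4 members in the lower direction, EXPB3, EXPA5, EXLA2 and EXPA16, and for 1 in the higher, EXPB9. Over all probe sets this was so for 11.7% and 13.2%.

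EXPB3 read 9.68, 8.72 and 8.71 in gs1;2, against 10.23, 10.63 and 10.10 in wild type. One mutant sample, replicate 354, lay close under the wild-type samples and the others more than 1 log2 unit below them. The difference was -1.29 (SE 0.315, adjusted p = 0.0342 in limma), or 2.44-fold lower. The call was lost without wild-type replicate 627 (adjusted p = 0.0767 in limma) or 628 (0.139), and without gs1;2 replicate 355 (0.124) or 356 (0.168). It was also lost when only the compared groups entered the fit (adjusted p = 0.0861 in limma) or each array set was fitted apart (0.0709). EXPB3 thus had opposite signs in gs1;2 and in ND8037 homozygotes, and in NC2373 its difference was 0.12 (SE 0.352, adjusted p = 0.906 in limma).

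EXPA5, EXLA2 and EXPB18 came next by size in gs1;2, and none was called. EXPA5, an alpha-expansin, read 7.88, 7.69 and 7.44 in gs1;2, against 8.79, 8.35 and 8.08 in wild type, a difference of -0.73 (SE 0.216, adjusted p = 0.0731 in limma). It was called with array weights (adjusted p = 0.0487 in limma), without wild-type replicate 629 (0.0381) and without ND8037 null replicate 158 (0.0331). EXLA2 read 8.58, 8.33 and 8.77 in gs1;2, against 9.71, 9.18 and 8.82 in wild type, a difference of -0.67 (SE 0.208, adjusted p = 0.0856 in limma). Its highest mutant sample lay just below its lowest wild-type sample. EXPB18 read 4.88, 5.63 and 5.47 in gs1;2, against 5.63, 6.87 and 6.79 in wild type. Those groups met at 5.63, and the difference of -1.10 had an SE of 0.467 and an adjusted p of 0.208 in limma.

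The beta-expansins EXPB6, EXPB2, EXPB3 and EXPB4 are neighbours in the gene table, and all 4 were measured. In ND8037 all 4 differences were positive, 0.36, 0.57, 0.99 and 0.46 in that order. In gs1;2 all 4 were negative, -0.29, -0.06, -1.29 and -0.64, and in NC2373 they were -0.64, -0.23, 0.12 and -0.61. Only the EXPB3 difference in gs1;2 was called. EXPB4 in gs1;2 had an adjusted p of 0.0908 in limma, and of 0.0223 without gs1;2 replicate 354. The EXPB4 probe set carries the Affymetrix suffix for probes shared by several genes, and that of EXLA2 the suffix for probes that may cross-hybridise, so part of their signal may come from related genes. Another run of 6 neighbouring EXPA genes had no measured member.

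The members varied more among replicates than most probe sets did. The median pooled SD within groups was 0.279 for the 30 members, against 0.141 over all probe sets. EXPA1 had the widest at 0.717, followed by EXPB11 at 0.713, EXPB18 at 0.660 and EXPA31 at 0.573, while XTH8 at 0.106 and EXLA1 at 0.116 were narrow. Some arrays were high for many members at once. NC2373 null replicate 152 was the highest of its group for 20 of 30 members and gs1;2 replicate 354 for 20, with median deviations of 0.20 and 0.18 from their group means. Wild-type replicate 628 was highest for 18, with a median deviation of 0.25. In wild type, EXPA1 read 7.99, 10.15 and 9.20, EXPA2 8.83, 10.72 and 9.68, EXPA3 9.00, 10.90 and 9.88, and EXPB2 9.29, 10.93 and 9.95, with replicate 627 lowest and replicate 628 highest in each.

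**Figure D3:**
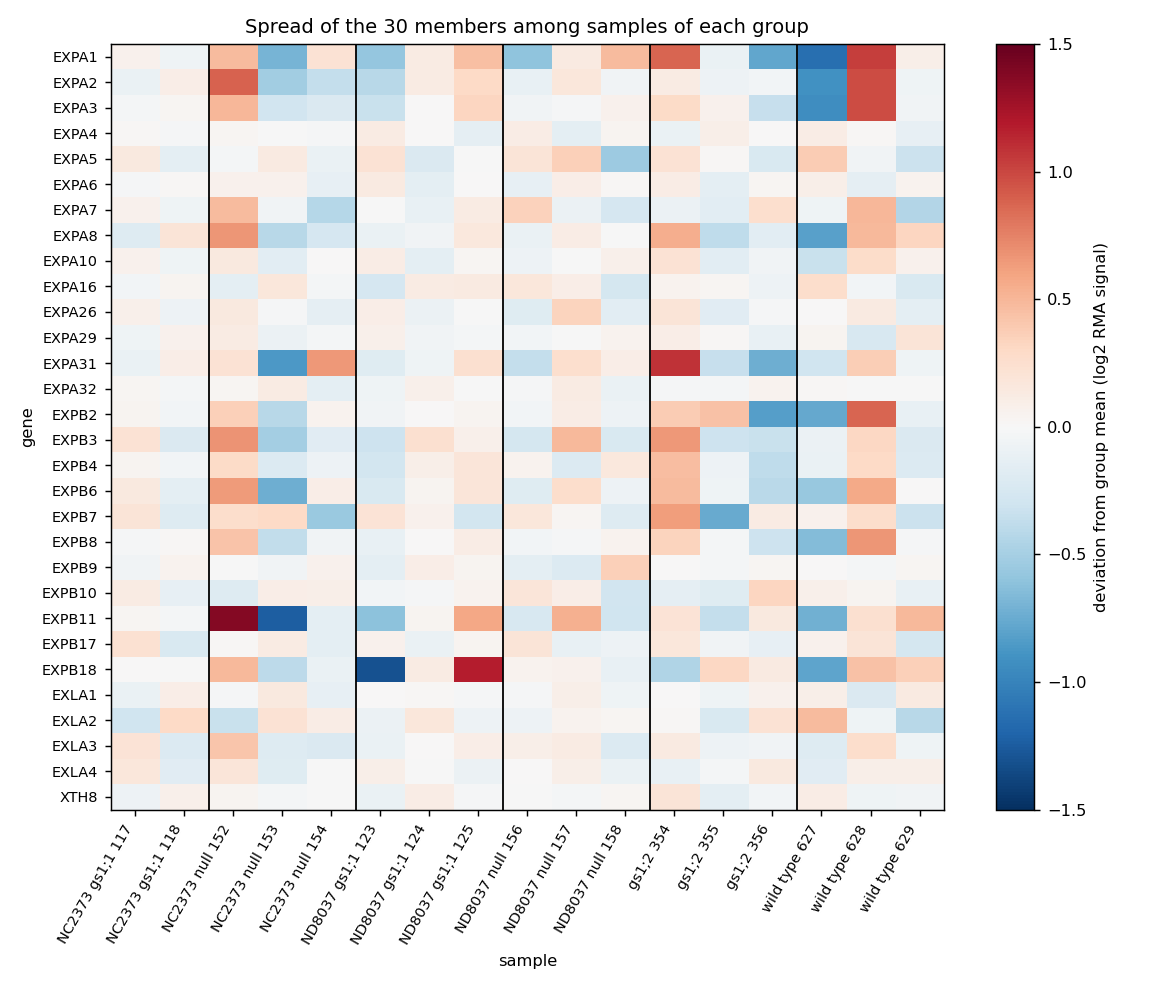
Deviation of each member (rows) in each sample (columns, grouped by genotype) from the mean of its group, in log2 RMA signal, with red above and blue below the group mean. Columns NC2373 null 152, gs1;2 354 and wild type 628 are red for most alpha- and beta-expansins, and wild type 627 is blue for EXPA1, EXPA2, EXPA3 and EXPB2.

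The 9 members EXPA4, EXPA6, EXPA26, EXPA29, EXPA31, EXPA32, EXPB9, EXPB10 and EXLA4 had a mean signal under 5.14, the median over all probe sets, and none of them was called in any comparison. A small true change could be hidden in such dim probe sets. Probe sets not chosen for EXPA7, EXPB17 and EXLA2 were not called in any comparison either. That of EXPB17 had the opposite sign to the chosen one in ND8037 (-0.10, against 0.27) and in gs1;2 (0.11, against -0.42). Those of EXPA7 also had the opposite sign to the chosen one in both comparisons. The EXLA2 probe sets had the same sign in each mutant.

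Other wall genes were read from lists of the same kind. Of 29 measured cellulose and hemicellulose synthases, 8 fell and 1 rose in NC2373, 3 fell and 1 rose in ND8037, and 2 fell in gs1;2, with medians of -0.35, 0.03 and -0.18. Over all probe sets, 3.58% were called lower and 4.07% higher in NC2373, and 4.68% and 4.4% in ND8037. In gs1;2 the shares were 2.37% and 1.67%. The same shares apply to the counts of endoglucanases, pectin enzymes, root hair genes and markers below. Between NC2373 null and wild type, 3 of the 29 synthases were called higher and 0 lower, against 0.428% and 0.486% of all probe sets. They were CESA4 (0.75), CESA7 (0.83) and CESA9 (1.02), with adjusted p of 0.0465, 0.0136 and 0.0225 in limma. Of these, CESA7 alone was called lower in NC2373 homozygotes. Its mean was 10.16 there, 10.90 in NC2373 null and 10.08 in wild type. CSLC9, of the family that makes the xyloglucan backbone, fell by 0.90 in NC2373 (SE 0.153, adjusted p = 0.00365 in limma) and by 0.80 in gs1;2 (SE 0.137, adjusted p = 0.0055 in limma). In ND8037 it differed by -0.37 (adjusted p = 0.103 in limma). The NC2373 call was lost without mutant replicate 117 (adjusted p = 0.0538 in limma), and the gs1;2 call with the compared groups alone (0.0675). CSLH1, a mixed-linkage glucan synthase, fell in both gs1;1 lines, by 0.72 (adjusted p = 0.00101 in limma) and by 0.64 (adjusted p = 0.00151 in limma), and differed by 0.03 in gs1;2. CSLF6, the main mixed-linkage glucan synthase of grasses, fell by 0.95 in NC2373 (adjusted p = 0.0256 in limma). Its call was lost without null replicate 152 (adjusted p = 0.10 in limma) or 154 (0.0588) or mutant replicate 117 (0.0505) or 118 (0.236), and the mean of all its probe sets differed by -0.34 (0.0637). CSLA9, of the mannan synthase family, fell by 1.50 in NC2373 (adjusted p = 0.0349 in limma), a call lost without null replicate 152 (0.13) or 153 (0.0633) or mutant replicate 117 (0.248) or 118 (0.0676). In ND8037 CSLA5 fell by 0.58 (adjusted p = 0.023 in limma), a call lost without mutant replicate 123 (0.104) or null replicate 157 (0.099). CESA8, a cellulose synthase of primary walls, rose there by 0.53 (adjusted p = 0.0485 in limma), and its call was lost without any 1 of the 6 ND8037 samples (adjusted p of 0.0692 to 0.126 in limma). In gs1;2 CSLD2 fell by 0.39 (adjusted p = 0.0402 in limma), a call lost without wild-type replicate 627 (0.127) or 628 (0.152) or mutant replicate 355 (0.112) or 356 (0.174). With the compared groups alone the calls of CSLF6 (adjusted p = 0.0935 in limma), CSLA9 (0.0732), CSLA5 (0.0803) and CSLD2 (0.12) were lost.

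The endoglucanases, which trim glucan chains, held the widest difference among the wall genes. GLU6 read 5.09 and 4.69 in NC2373 homozygotes, against 9.49, 8.41 and 9.76 in NC2373 null, and 5.05, 6.38 and 5.89 in ND8037 homozygotes, against 8.32, 8.75 and 8.26 in ND8037 null. The mutant samples lay far below the null in both lines. Wild type, on arrays of the same signal distribution as NC2373, read 7.22, 7.44 and 7.15. Those values lay below all NC2373 null samples and above both NC2373 homozygotes, with means of 9.22 in NC2373 null and 7.27 in wild type. No endoglucanase was called higher in NC2373 null than in wild type by limma. GLU6 fell by 4.33 (SE 0.615, adjusted p = 0.0014 in limma) and by 2.67 (SE 0.550, adjusted p = 0.01 in limma), and both calls held under the 24 alternatives tried. Of 11 endoglucanases, GLU6 alone was called in NC2373, GLU6 and GLU8 in ND8037, and GLU14 and GLU8 in gs1;2. GLU8 rose in ND8037 by 0.81 (adjusted p = 0.0206 in limma) and fell in gs1;2 by 0.93 (adjusted p = 0.0171 in limma). The first call was lost without mutant replicate 123 or 125 or null replicate 157 or 158 (adjusted p of 0.0897, 0.064, 0.0848 and 0.0736 in limma), the second without wild-type replicate 628 or mutant replicate 355 or 356 (0.0818, 0.0566 and 0.0643). GLU14 fell by 1.54 in gs1;2 (adjusted p = 0.0122 in limma), a call lost without mutant replicate 355 (0.0574) or 356 (0.0772) and with the compared groups alone (0.0874). GLU14 was also called lower in NC2373 null than in wild type, by a difference of -1.47 (adjusted p = 0.0356 in limma), with means of 5.31 in gs1;2, 5.38 in NC2373 null and 6.85 in wild type. PMEI28, an inhibitor of pectin methylesterase, rose by 1.00 in NC2373 (adjusted p = 0.0155 in limma), a call lost without null replicate 152 (0.0654) or mutant replicate 117 (0.136) and with the compared groups alone (0.0545). Its mean was 10.99 in NC2373 homozygotes, 9.99 in NC2373 null and 11.05 in wild type, and the null was called lower than wild type (-1.06, adjusted p = 0.0251 in limma). PMEI28 was 1 of 2 pectin enzymes measured, and neither was called in the other mutants. Of 3 root hair genes, CSLD1, SRH2 and the member EXPB2, none was called in any mutant. SRH2, which also stands for xyloglucan side chain enzymes as XXT1, had differences of -0.13, 0.36 and -0.47 in NC2373, ND8037 and gs1;2 (adjusted p of 0.689, 0.0875 and 0.0515 in limma).

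**Figure D4:**
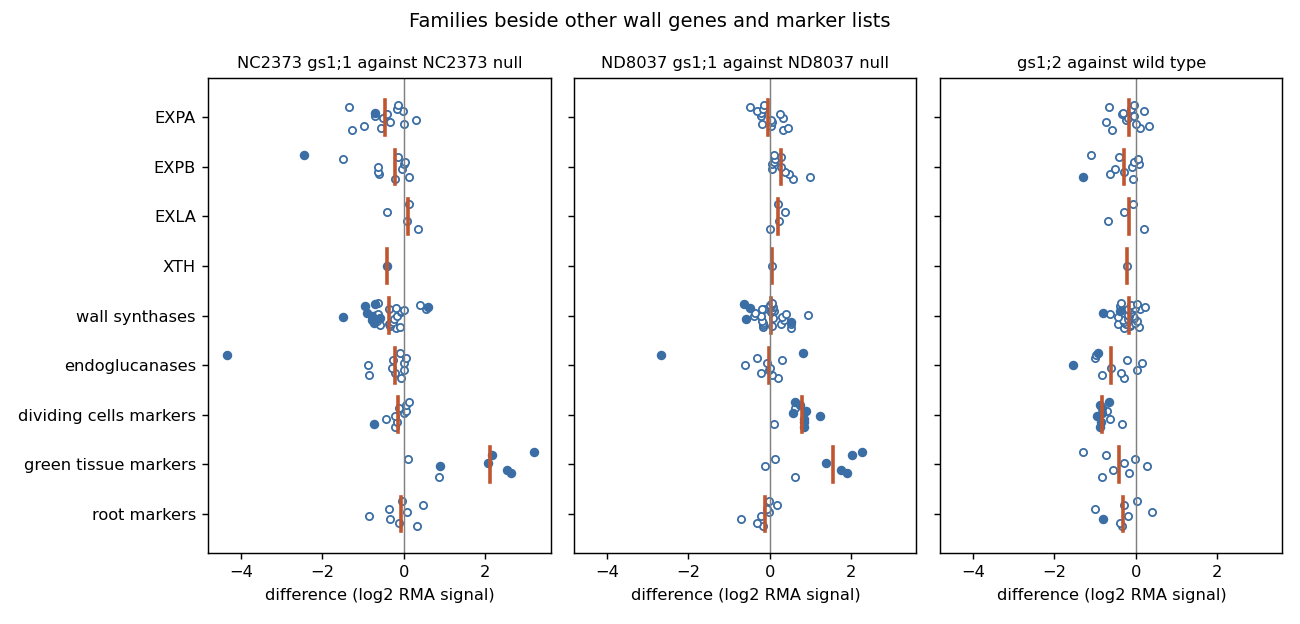
Differences in log2 RMA signal (horizontal axis) of every member and every measured gene of the 2 larger wall lists and the marker lists (rows). Each mutant is set against its control. Filled points have an adjusted p under 0.05 and vertical bars are medians of a family or list. The dividing-cell markers lie to the right in ND8037, with a median of 0.79, and to the left in gs1;2, with a median of -0.83.

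Some marker lists of cell types differed between mutant and control, and not alike in all mutants. Of 10 markers of dividing cells, among them PCNA, MCM helicase subunits and B-type cyclins, 8 rose in ND8037 and 7 fell in gs1;2, while 1 fell in NC2373. Their mean log2 signal per sample was 6.58 to 7.17 in ND8037 homozygotes, against 5.96 to 6.20 in ND8037 null, and 6.69 to 7.37 in gs1;2, against 7.63 to 8.00 in wild type. In NC2373 it was 7.75 to 7.82 in the mutant and 7.78 to 8.07 in the null. Of 8 genes of green tissue, 6 rose in NC2373 and 5 in ND8037, and none was called in gs1;2, where their median difference was -0.42. Their mean signal was 9.11 to 9.58 in NC2373 homozygotes, against 7.22 to 7.86 in NC2373 null, and 7.82 to 9.04 in ND8037 homozygotes, against 6.80 to 7.42 in ND8037 null. NC2373 null was itself above wild type for 7 of these 8 genes, with a median of 0.99. There 2 of them were called higher, against 0.428% of all probe sets. Of 8 root markers none was called in either gs1;1 line, and 1, Lsi2, fell in gs1;2. Negative differences were found for 5 of them in NC2373, 7 in ND8037 and 6 in gs1;2, with medians of -0.07, -0.12 and -0.31. Lsi2 also differed by -0.70 in ND8037 (adjusted p = 0.0527 in limma). The 3' minus 5' signal of actin, a sign of RNA quality, was 3.38 to 3.49 in ND8037 homozygotes, against 3.19 to 3.29 in ND8037 null, and 2.00 to 2.11 in gs1;2, against 1.62 to 1.93 in wild type. In NC2373 it overlapped, 1.74 to 1.89 in the mutant and 1.73 to 2.14 in the null. The same measure of GAPDH was lower and apart in ND8037, 1.91 to 2.12 in homozygotes, against 2.19 to 2.27 in the null, and overlapped in gs1;2, 1.50 to 1.57 in the mutant and 1.34 to 1.51 in wild type. In NC2373 it was 1.51 to 1.59 in homozygotes and 1.46 to 1.64 in the null. The part of dividing cells, green tissue and RNA quality in the expansin and XTH values was not tested.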

How the data were processed

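The authors deposited signals on the log2 scale, 1 for each probe set on each array, computed with RMA, per the submitters' processing notes. RMA corrects background, normalizes arrays and summarises probes. Its software is not given in the sources used here, nor is a version. Samples of a group are biological replicates, per the labels.

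After 123 Affymetrix controls were removed from 57381 probe sets, 57258 entered 1 limma fit (limma 3.58.1, R 4.3.3) with a mean per group over all 17 samples, 11 residual and 3.83 prior degrees of freedom. P-values are two-sided, adjusted by Benjamini-Hochberg over all 57258. The median SE was 0.127 for NC2373 and 0.113 for ND8037 and gs1;2, and the number of arrays limits the precision. The fit was tested on simulated arrays with independent noise, without the shifts shared by many members of an array. The outcome of that test is not given here. Plots used Python 3.11.15 and matplotlib 3.10.9.

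Genes came from the platform annotation joined to a RefSeq gene table by gene identifier. All 22436 probe sets with 1 gene were matched, 95 had several genes and 34727 have none listed here. Genome positions and sequences were not used here. Members and lists were chosen with earlier results of these data known.

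Genes named are the called members, the 2 brightest members of each family by mean signal, the 3 largest differences of each mutant, the disrupted genes, and up to 3 called genes per wall list and comparison with the largest differences. Members described for their direction, spread or neighbours, and CESA4, CESA7 and CESA9, were chosen after their values were seen. Alternatives were the compared groups alone, each array set apart, quantile normalization, a filter on dim probe sets, trend and robust variance, array weights, the mean of a gene's probe sets, and each sample left out.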

Additional observations from a re-analysis of the deposited data

How the results depend on the processing

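No difference of a named member or wall gene changed sign under any alternative while called. The number of called members in NC2373 (3) ran between 0 and 5 when 1 sample was left out: 0 without mutant replicate 117 or 118, 5 without null replicate 153 or wild-type replicate 628. In ND8037 (0) it was 2 with the compared groups alone, 2 with each array set apart, 1 without dim probe sets and 1 with array weights, and 0 to 1 with 1 sample left out. In gs1;2 (1) it was 0 with the compared groups alone, 0 with each set apart and 2 with array weights, and 0 to 4 with 1 sample left out, the highest without wild-type replicate 629. Between NC2373 null and wild type (0) it was 1 without dim probe sets, 1 with trend and robust variance, and 0 to 2 with 1 sample left out. The difference between the lines kept 0 calls throughout.

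Wall list genes called in NC2373 (11) were 7 with each array set apart and 4 to 15 with 1 sample left out. In ND8037 (6) they were 2 to 8 with 1 sample left out. In gs1;2 (4) they were 1 with the compared groups alone, 7 without dim probe sets, 7 with array weights and 1 to 8 with 1 sample left out. A fit of fewer samples has fewer degrees of freedom, and the other causes were not tested. CESA8 in ND8037 also lost its call without NC2373 null replicate 153 or 154 or gs1;2 replicate 355 (adjusted p of 0.0546, 0.0601 and 0.0629 in limma), and CSLD2 in gs1;2 without ND8037 mutant replicate 124 or null replicate 156 or 158 (0.0504, 0.0534 and 0.0513). With each array set apart, CSLA9, CSLF6, CSLA5 and CSLD2 also lost their calls (0.0596, 0.066, 0.0803 and 0.0904), and with quantile normalization CESA8 and CSLD2 (0.0583 and 0.0844). No paired analysis was possible because the groups share no replicate numbers.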

Other observations

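EXPB9, a beta-expansin chosen here after its values were seen, was the only 1 of the 30 members whose deposited values were higher on average on the ND8037 arrays than on the others. The array sets differ in signal distribution, so this is a description of the deposited values and not of expression. EXPB9 read 4.11 to 4.67 on the 6 ND8037 arrays and 3.50 to 3.64 on the other 11, a gap of 0.78, where the median gap over all probe sets was -0.55. A gap above 0 was found for 7.67% of probe sets, and 0.363% exceeded that of EXPB9. Mutant and null ND8037 samples overlapped, with a difference of 0.06 (adjusted p = 0.799 in limma). Genotype of the line, array set and RNA handling cannot be told apart.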
